A study of Arabidopsis thaliana with 3 samples.

Results

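EIN3 and RTE1 are genes of ethylene signalling, and both were measured in whole Arabidopsis thaliana plants 1 hour after flooding with water or with 2,4-D. They were chosen by name, with earlier results of these data known. A probe set, the group of short probes that reads 1 transcript on the array, was taken when its single gene symbol was EIN3 or RTE1. This gave 2 probe sets of the 22746 for plant transcripts, 1 for EIN3 (AT3G20770) and 1 for RTE1 (AT2G26070), and both passed the filter on low signal. Plants of the Col-0 accession, a wild type, grew on 1% phytagel with MS medium and 1.5% sucrose for 14 days. All plants were kept in the dark at 4 °C for 48 hours, had 16 hours of light a day, and were at growth stage 1.04, a rosette of young leaves. The control plants received 1 mL of distilled water. The treated plates received the same volume of 2,4-D at 1 mM, a synthetic auxin used as a herbicide, dissolved in water at pH 7.0. There was 1 array for water and there were 2 for 2,4-D, called treated array 1 and treated array 2 after their replicate numbers. No pH was given for the water, and the labels do not say whether plants were pooled or whether the treated samples came from separate plates.

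Ethylene is a gaseous plant hormone. Its receptors, among them ETR1, sit in the membrane of the endoplasmic reticulum and repress the response through the kinase CTR1 for as long as no ethylene is bound. When ethylene binds, the membrane protein EIN2 is released from CTR1 and the transcription factor EIN3 accumulates and switches on ethylene response genes. The amount of EIN3 protein is set largely by its breakdown through the F-box proteins EBF1 and EBF2, which transcript levels do not show. RTE1 is a small membrane protein that promotes the signalling of ETR1 and so acts on the repressing side of the pathway. High auxin, including auxin herbicides, is known to raise ethylene production by inducing genes of its biosynthesis.

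The signals are MAS5 intensities on a linear scale. Both genes lay above background on every array. The brightest of 27 dim bacterial control probe sets reached 13.9 for water, 10.7 for treated array 1 and 8.37 for treated array 2, and the lowest signal of either gene was the 47.1 of RTE1 for water. The RNA came from whole plants, so fewer cells that express a gene and less RNA per cell cannot be told apart. The labelled whole plant held leaf transcripts, with RCA, LHCB4.1 and LHCB4.2 between 3700 and 8579 on every array, and the root transcript PYK10 between 2240 and 2985. The summed signal of the 3 leaf markers measured, of 11 listed, was 19971 with water and 13272 and 20422 with 2,4-D. That of the 3 root markers measured, of 11 listed, was 2321 with water and 3008 and 2458 with 2,4-D. Nearly all of it came from PYK10 (2240 with water, 2985 and 2439 with 2,4-D). The root-hair genes EXPA7 (37.0 with water, 15.1 and 15.3 with 2,4-D) and EXPA18 (43.8, 7.98 and 3.55) were lower on both treated arrays. There EXPA18 lay below the brightest dim bacterial control. None of the 4 markers bright enough to be tested passed, and the part of tissue makeup in the changes of EIN3 and RTE1 was not tested.

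The EIN3 signal was 460 in the water plants, 262 on treated array 1 and 284 on treated array 2. Both treated arrays lay well below the water array and close to each other. The change was -0.81 and -0.69 on the log2 scale on the 2 treated arrays, and these values differed from each other by 0.12. The smaller of them was 5.84 times that gap. Both changes share the single water array, whose own spread does not enter the gap. In the limma fit across all tested probe sets EIN3 fell by 0.75 ± 0.19 on the log2 scale (SE, n = 2 against 1), which is 1.69-fold lower with a 95% interval from 1.3-fold to 2.19-fold (limma adjusted p = 0.00121). The call was lost when the variance was estimated without its trend over signal (limma adjusted p = 0.0735). With the arrays scaled to their hybridisation controls the direction turned, to 0.11 ± 0.32 (limma adjusted p = 0.767).

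The RTE1 signal was 47.1 in the water plants, 65.6 on treated array 1 and 89.0 on treated array 2. Both treated arrays lay above the water array, but they were also well apart from each other. The log2 change was 0.48 on the first treated array and 0.92 on the second, and the gap of 0.44 between them was nearly as large as the smaller change. That gap was wider than the one of 82.7% of the tested probe sets, while for EIN3 the share was 31.3%. The fitted log2 change of RTE1 was 0.70 ± 0.29 (SE, n = 2 against 1), or 1.62-fold with a 95% interval from 1.1-fold to 2.4-fold. It did not pass after adjustment over all tested probe sets (limma adjusted p = 0.0638). The standard error was taken from probe sets of like signal, which gave a residual SD of 0.23 for RTE1 and 0.16 for EIN3. A single water array stood behind both changes, and its own spread was not measured.

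**Figure D1:**
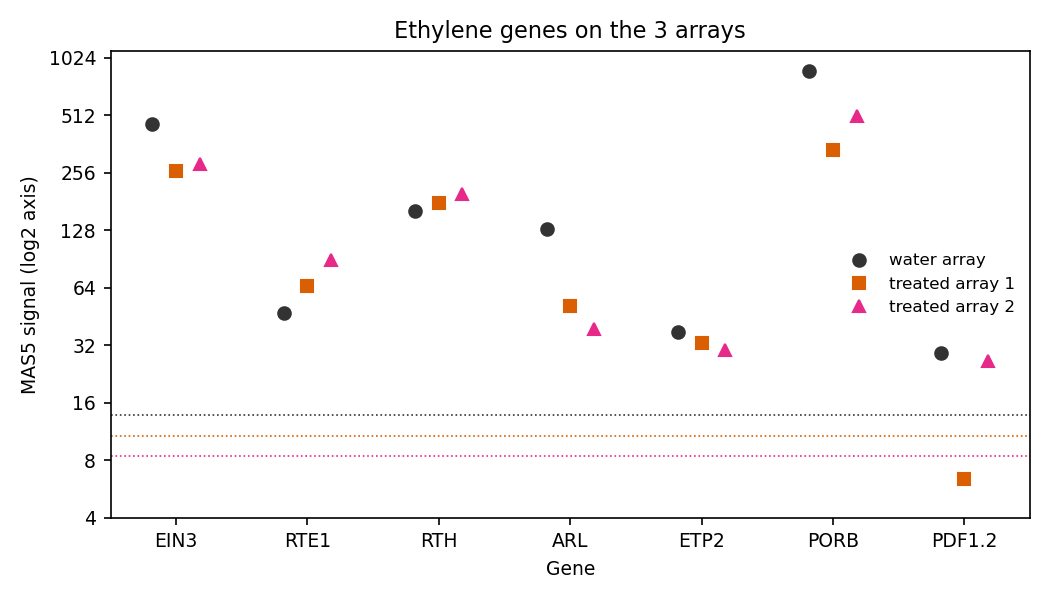
MAS5 signal (log2 axis) of EIN3, RTE1 and the other named ethylene genes on the water array and the 2 treated arrays, 1 point per array. The dotted lines mark the brightest dim bacterial control of the array in the same colour. On these deposited values EIN3, ARL, PORB, ETP2 and PDF1.2 lay lower on both treated arrays and RTE1 and RTH higher on both, and PDF1.2 was below its line on treated array 1. With scaling to the hybridisation controls the fitted change turned upward for EIN3 and ETP2.

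The size of both changes was moderate among the 13648 tested probe sets. Calls at an adjusted p under 0.05 were made for 21.3% of them, with 10.8% higher and 10.5% lower, and 1 of the 2 genes was among them. A larger fall than that of EIN3 was fitted for 9.37% of the tested probe sets, and a larger rise than that of RTE1 for 9.69%. On the deposited values neither gene changed by 2-fold on both treated arrays, a size that 6.95% of the tested probe sets reached. On the treated array nearest to that size, EIN3 was 1.76-fold lower (treated array 1) and RTE1 1.89-fold higher (treated array 2). Scaled to the hybridisation controls, RTE1 rose by 1.22 and 1.90 on the log2 scale, over 2-fold on both treated arrays. The share of tested probe sets that reached 2-fold was not counted with that scaling.

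**Figure D2:**
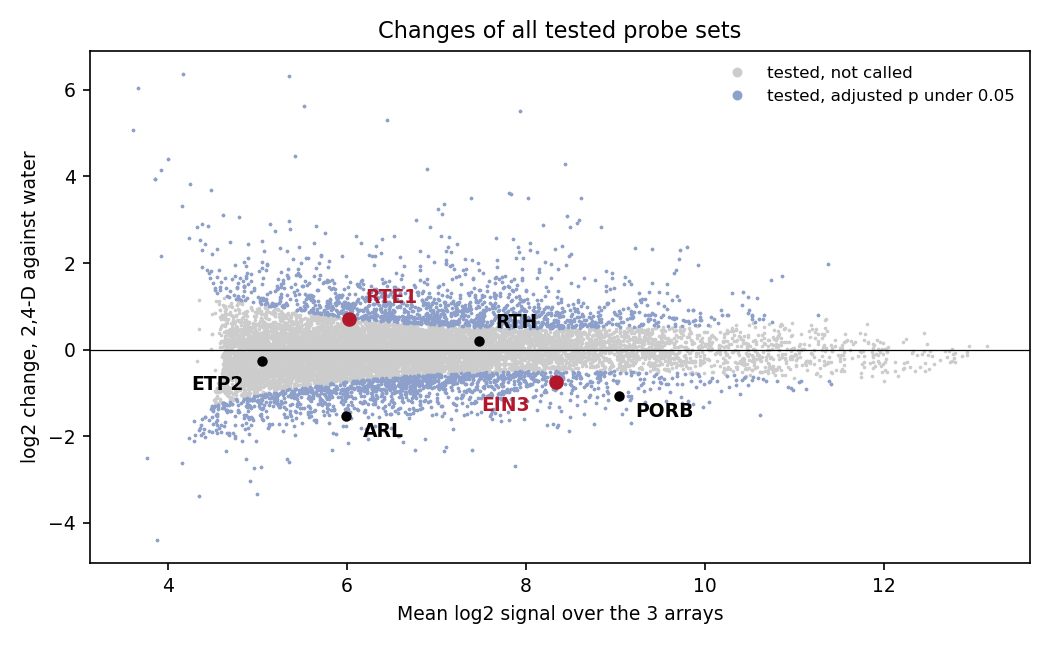
log2 change with 2,4-D against the mean log2 signal over the 3 arrays, 1 point per tested probe set, with called probe sets in blue. EIN3 (-0.75) lay among the called falls (but at 0.11 with scaling to the hybridisation controls), RTE1 (0.70) at the edge of the called rises, and ARL (-1.54) and PORB (-1.08) lay lower.

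The direction of the EIN3 change depended on what the arrays were scaled to. RTE1 stayed higher under every scaling tried. Each scaling by a constant that was tried raised the change of every probe set, so none of these could have turned a rise. As deposited, every array had the same trimmed mean. With the arrays scaled to 1 median, the log2 change was -0.64 ± 0.19 for EIN3 (limma adjusted p = 0.00747) and 0.82 ± 0.29 for RTE1 (limma adjusted p = 0.0254). After quantile normalization it was -0.81 ± 0.19 for EIN3 (limma adjusted p = 0.00143) and 0.76 ± 0.27 for RTE1 (limma adjusted p = 0.0369). RTE1 was therefore called higher under both of these scalings, as were 14.9% and 11.6% of all tested probe sets. EIN3 was called lower under both.

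The hybridisation controls are bacterial and phage transcripts that are, as a rule, added to each labelled sample in fixed amounts. Their geometric mean over 18 probe sets was 774 for water against 462 and 392 on the treated arrays. With the arrays scaled to these controls, the median log2 change of all tested probe sets moved from -0.04 to 0.83, and 99.2% of the calls were higher, against 50.7% as deposited and 67.2% after median scaling. EIN3 then stood at 309 for water against 294 and 377 for the treated arrays. Its treated values lay on both sides of the water value, and its change did not pass. RTE1 then stood at 31.6 for water against 73.7 and 118 for the treated arrays, a change of 1.56 ± 0.35 (limma adjusted p = 8.43e-05). Relative to the median of the tested probe sets the changes were -0.71 and then -0.72 for EIN3, and 0.74 and then 0.73 for RTE1. Scaling by a constant shifts every change alike, and only the filter was applied anew. This likeness therefore follows from the arithmetic and is not a result about the genes.

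The individual controls did not move together. The bioB control was at 228 for water against 102 and 79.8 for the treated arrays, and bioC at 621 against 303 and 215. Less apart were bioD, at 1061 against 871 and 735, and cre, at 4396 against 3601 and 4122. Scaled to cre alone, EIN3 had a log2 change of -0.56 ± 0.27 and to bioD alone -0.35 ± 0.32. Scaled to bioB or bioC alone it was 0.58 ± 0.47 or 0.53 ± 0.70. None of these 4 changes of EIN3 passed (limma adjusted p from 0.177 to 0.502). RTE1 had a change of 0.89 ± 0.35 with cre (limma adjusted p = 0.075), 1.1 ± 0.36 with bioD, 1.98 ± 0.61 with bioC and 2.03 ± 0.46 with bioB, and it passed with the last 3. Scaling to any of these controls raised the change of every probe set. The share of all tested probe sets called higher was not counted for them. Why the controls were lower on the treated arrays was not tested. These 4 scalings were added after the data were seen.

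**Figure D3:**
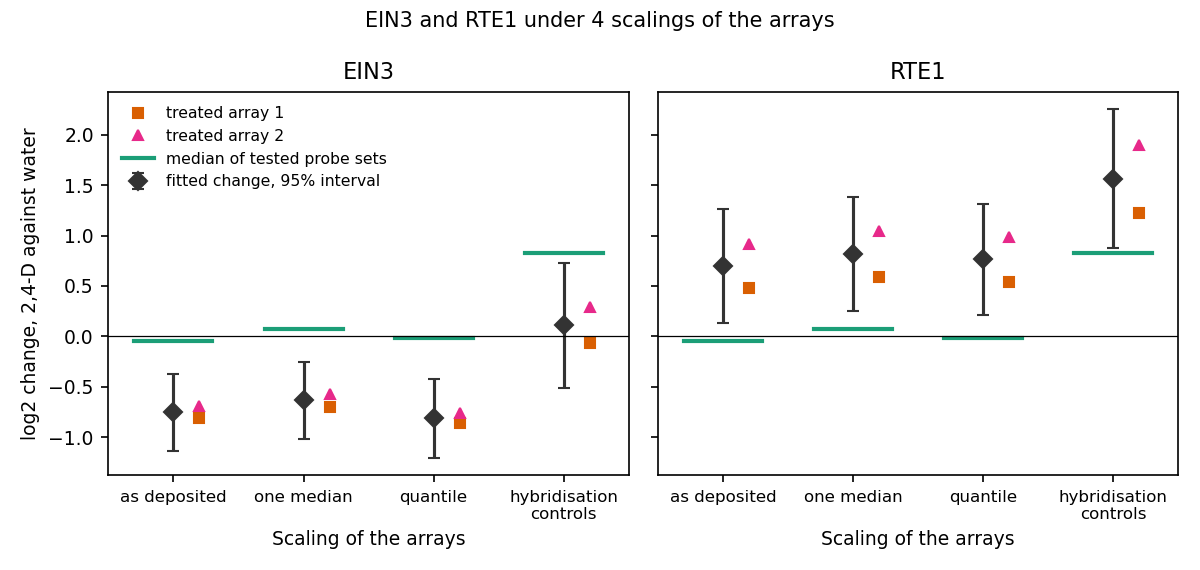
log2 change of EIN3 (left) and RTE1 (right) under 4 scalings of the arrays. Diamonds are fitted changes with 95% intervals, squares and triangles the 2 treated arrays, and green bars the median change of the tested probe sets. EIN3 moved from -0.75 as deposited to 0.11 with the hybridisation controls, where the green bar rose to 0.83. RTE1 stayed above 0 throughout. Scaling to 1 median or to the hybridisation controls raised every change, so neither could have turned a rise.

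The difference between the genes within an array does not depend on any scaling by a constant. The log2 change of RTE1 exceeded that of EIN3 by 1.29 on treated array 1 and by 1.61 on treated array 2. It exceeded it by 1.4 and 1.75 after quantile normalization and by 1.15 and 1.4 with an offset of 16 added before log2. The measured changes of the genes were therefore unequal on both treated arrays, which does not say which of them moved. Both differences rest on the same single water array and were not tested. The place of EIN3 and of RTE1 among the 22746 plant probe sets of an array, which scaling by a constant also leaves alone, shifted in opposite directions. EIN3 was brighter than 94.1% of the plant probe sets with water and than 88.5% and 89.3% with 2,4-D. RTE1 was brighter than 53.0% with water and than 61.8% and 69.3% with 2,4-D. Probe sets differ in how strongly they bind, so only the shift of a gene between arrays can be read from these places.

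**Figure D4:**
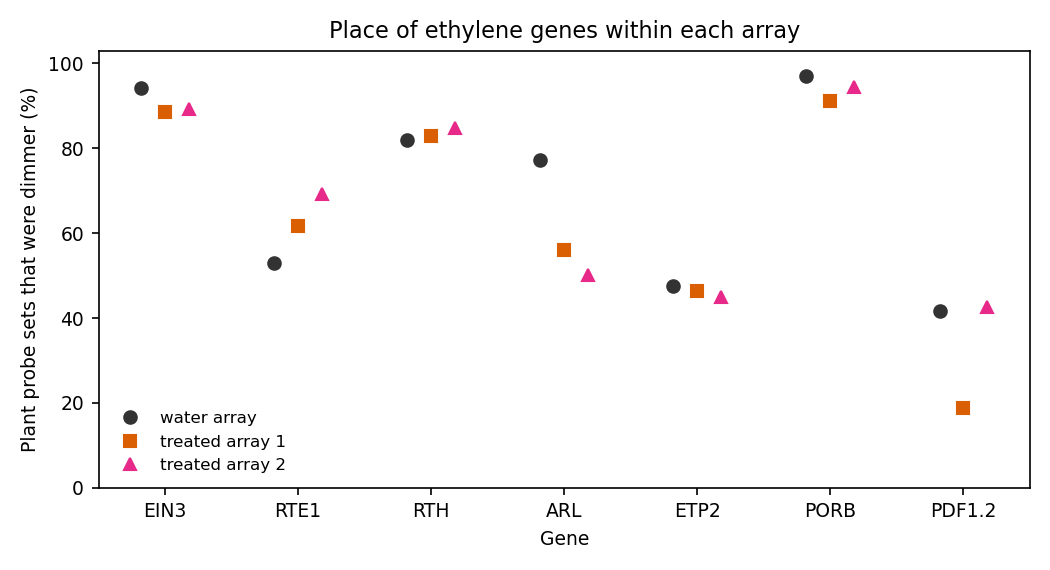
Share of the plant probe sets on the same array that were dimmer than each ethylene gene, in percent, with 1 point per array. RTE1 moved up on both treated arrays (53.0% to 61.8% and 69.3%), EIN3 moved down (94.1% to 88.5% and 89.3%), and RTH stayed between 81.9% and 84.7%.

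RTH, the homolog of RTE1 in Arabidopsis, was measured by a probe set of its own. It gave 162 for the water plants against 177 and 199 for the treated plants. Both treated arrays were slightly above the water array, and the log2 change of 0.21 ± 0.21 did not pass (limma adjusted p = 0.519). Scaled to the hybridisation controls, RTH was called higher, with a change of 1.07 ± 0.31 (limma adjusted p = 0.00203). With that scaling 53% of all tested probe sets were called higher, and their median change over all tested was 0.83. The change of RTE1 exceeded that of RTH by 0.36 on treated array 1 and by 0.62 on treated array 2. This difference was not tested.

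The other ethylene genes came from lists of 97 gene symbols for biosynthesis, receptors, receptor regulators, signal relay, the EIN3 family and response genes, together with the ERF transcription factors. Only 7 members, EIN3 and RTE1 included, had a probe set with a single symbol here. No member of the biosynthesis, receptor and ERF lists was among them. The receptor gene ETR1 and CTR1, EIN2, EBF1 and EBF2 were not analysed here either. Of the 6 members bright enough to be tested 3 were called lower (EIN3, ARL and PORB), 0 were called higher by limma, and 3 did not pass. The share called was 50% against 21.3% of all tested probe sets, and the median log2 change was -0.51 against -0.04. EIN3 and RTE1 are themselves among the 6, and the lists were written with earlier results of these data known. The share is therefore not independent evidence about ethylene genes. At an unadjusted limma p under 0.05, 1 member (RTE1) was higher, as were 15.8% of all tested probe sets. RTE1 was also the 1 member called higher with the arrays scaled to 1 median and after quantile normalization, where 14.9% and 11.6% of all tested probe sets were called higher. Scaled to the hybridisation controls, 0 of the 6 were called lower and 2 higher (RTE1 and RTH), against 53% of all tested probe sets called higher.

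ARL is a relative of the organ growth gene ARGOS, whose family can dampen ethylene responses, and promotes cell expansion. It gave 130 for the water plants against 51.2 and 38.9 for the treated plants. Both treated arrays lay far below the water array, and it fell by 1.54 ± 0.29 on the log2 scale, or 2.91-fold (limma adjusted p = 3.13e-06). Its place on the array dropped from above 77.2% of the plant probe sets to above 56.1% and 50.2%. Scaled to the hybridisation controls the change was -0.68 ± 0.35 (limma adjusted p = 0.0913).

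PORB encodes a light-dependent enzyme of chlorophyll synthesis, and EIN3 is known to bind and activate its gene in greening seedlings. It gave 869 for the water plants against 336 and 504 for the treated plants. The treated arrays were both lower but unequal, and PORB fell by 1.08 ± 0.20 on the log2 scale, or 2.11-fold (limma adjusted p = 1.49e-06). Scaled to the hybridisation controls the change was -0.22 ± 0.34 (limma adjusted p = 0.583).

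ETP2, an F-box protein that targets EIN2 for breakdown, gave 37.5 for the water plants against 32.8 and 30.0 for the treated plants. Its log2 change of -0.26 ± 0.40 did not pass (limma adjusted p = 0.704). PDF1.2, a plant defensin gene that ethylene and jasmonate induce together, was too dim on average to be tested. It gave 29.0 for the water plants, 6.39 on treated array 1 and 26.5 on treated array 2. The first treated value was below the brightest dim bacterial control of its array (10.7), and the other was close to water.

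The genes most like EIN3 in level and change were sought by the smallest Euclidean distance in log2 signal over the 3 arrays, among 7283 other tested probe sets with 1 gene symbol. They were AT5G08060 (422 with water, 259 and 282 with 2,4-D), AT1G80180 (448, 267 and 308) and AKINBETA1 (AT5G21170, a subunit of the SnRK1 energy-sensing kinase, with 483, 240 and 276), at distances of 0.12, 0.13 and 0.15. Their direction follows from this choice and is not a separate result.

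The genes most like RTE1 were AT3G23605 (47.2 with water, 63.1 and 91.5 with 2,4-D), AT2G44660 (49.2, 67.4 and 85.0) and AT2G45010 (49.1, 70.5 and 89.0), at distances of 0.07, 0.10 and 0.12. Here too the direction and the order of the arrays follow from the choice. Of the 4 genes that border EIN3 and RTE1 on their chromosomes in the RefSeq table, AT3G20760 beside EIN3 was the 1 with a named probe set. It was at background, with 1.15 on the water array and 0.757 and 0.672 on the treated arrays.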

How the data were processed

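Biotin-labelled total RNA of whole plants was hybridised to Affymetrix ATH1 arrays, as the labels state. The authors deposited MAS5 signals, which are linear intensities, per the submitters' processing notes. Neither the MAS5 version nor its scaling target is given in the sources used here. The mean of the middle 96% of probe sets was 100 on each array. Of 22810 probe sets, 64 controls were left out of the tests. Genes were named through the platform's annotation table (13513 probe sets with 1 symbol, 503 with several, 8730 not listed), with loci for 13436 from RefSeq TAIR10.1, used for names and gene neighbours only.

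Probe sets with a mean signal at or above the 40th percentile (24.8) were taken to log2. They were fitted with lmFit and then eBayes (trend over intensity) from limma 3.58.1 (R 4.3.3) and Benjamini-Hochberg adjusted over 13648 probe sets, threshold 0.05. Only the treated pair gave a residual degree of freedom (1). The prior degrees of freedom were infinite, so each variance came from the trend alone, and the water array was assumed to vary like the treated ones. P-values measure only the spread between these arrays, which may be technical, and the number of arrays limits the precision. The fit was tested on simulated data in which the water array varied like the treated ones, so that assumption was not examined.

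The pair and the gene lists were chosen with earlier results of these data known. Every list member with a single symbol is named, as are the 3 probe sets nearest to EIN3 and to RTE1. AT3G20760 was named for its position. Alternatives covered scaling, the offset before log2, the filter, the variance trend and each treated array left out.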

Additional observations from a re-analysis of the deposited data

How the results depend on the processing

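No paired analysis was possible because the water and 2,4-D groups share only 1 replicate number. EIN3 kept its direction and its call with the arrays scaled to 1 median, after quantile normalization, with an offset, without a filter and with a filter at the 60th percentile (limma adjusted p from 0.000951 to 0.019). The call was lost without the intensity trend (-0.75). The log2 change turned to 0.11 with all hybridisation controls, 0.58 with bioB and 0.53 with bioC, and was -0.35 with bioD and -0.56 with cre. RTE1 was higher throughout and passed with 1 median (0.82), quantile normalization (0.76), all hybridisation controls (1.56), bioB (2.03), bioC (1.98) and bioD (1.1). Each scaling by a constant that was tried raised every change, so none of these could have turned a rise. With all hybridisation controls 53% of all tested probe sets were called higher, a share not counted for the single controls. The limma adjusted p of RTE1 over the other alternatives was between 0.0713 and 0.168. With 1 treated array left out, a value with no test, the change was between -0.81 and -0.69 for EIN3 and between 0.48 and 0.92 for RTE1. Of all tested probe sets, 1472 were called higher and 1434 lower. The counts were 7228 and 55 with the hybridisation controls, 964 and 710 without a filter, and 834 and 839 without the trend. They were 2031 and 991 with 1 median and 1589 and 1396 after quantile normalization. Of the ethylene list, 1 was called higher under each of these 2 scalings, and 2 higher and 0 lower with the hybridisation controls. With these controls the change also turned for ETP2 (0.61), RCA (0.69), LHCB4.1 (0.61), LHCB4.2 (0.37), AT5G08060 (0.22) and AT1G80180 (0.22). For the 14 other named genes the tested alternatives, without the single controls, gave 77 values on the same side of zero and of the threshold, 9 that newly passed, 5 that no longer passed and 6 that turned. ETP2 was too dim for the filter at the 60th percentile. With 1 treated array left out, 2 of 28 values turned, those of RCA (0.24) and LHCB4.1 (0.08) without replicate 1. The cause of these shifts was not tested. Counts of calls without a treated array were not run, since no residual degree of freedom would be left. The water signal of RTE1 (47.1) stood over the brightest dim control of that array (13.9).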
